A study of Mus musculus with 18 samples.

Results

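Laminin and integrin genes were described in 18 mouse RNA-seq libraries, to see which chains and receptors high endothelial cells, other blood endothelial cells and cultured breast cancer cells transcribe and how these levels differ with a tumour or with 12-HETE. Every gene whose symbol names a laminin alpha, beta or gamma chain or an integrin alpha or beta subunit was taken. This gave 37 genes, 11 for laminin chains, 18 for integrin alpha subunits and 8 for integrin beta subunits, among 55401 genes listed in the endothelial table and 22612 lines in the EO771 table. Genes with a mean value of at least 10 were tested, which kept 35 of the 37 in the endothelial table (all but Itga11 and Itgad) and 25 in the EO771 table.

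The endothelial cells came from female wild-type C57BL/6 mice and were sorted as CD45- CD31 high, with PNAd, the sugar epitope of high endothelial venules, marking HECs. BECs came from the fat pad of mice without a tumour (BEC normal) or from primary EO771 tumours (BEC tumour). HECs came from lymph nodes of mice without a tumour (HEC normal) or, by the labels, from lymph node metastases (HEC tumour). Tumours were raised by inoculating EO771 cells in the mammary fat pad. In culture, EO771, an established mouse breast cancer line, was given vehicle (DMSO in saline) or 12-HETE, the lipid made from arachidonic acid by ALOX12. Each of the 6 groups had 3 libraries. HECs and BECs were taken from different organs, and the BECs with and without tumour from different tissues, and each tissue was digested with its own enzymes, so cell type and organ, or tumour and tissue, cannot be told apart. The study's figure legends give 3 independent experiments for its endothelial RNA-seq and for that of EO771 cells with vehicle or 12-HETE. The labels do not say how many mice each library pooled or whether replicates were separate cultures, so p-values measure the spread between these libraries only.

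Laminins are trimers of an alpha, a beta and a gamma chain that polymerise into the sheet of the basement membrane, on which endothelium and epithelium rest. Endothelial basement membranes are built mainly from laminins with the alpha 4 or the alpha 5 chain, whereas laminin with the alpha 3 and beta 3 chains anchors epithelia. Integrins are receptors of 1 alpha and 1 beta subunit each: alpha 3, 6 and 7 bind laminin, alpha 1, 2, 10 and 11 bind collagen, alpha 5, 8, V and IIb bind ligands with an RGD motif such as fibronectin, and the beta 2 and beta 7 partners serve mainly leukocytes.

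Deposited values summed to between 56.4 and 79.4 M per endothelial library and to between 17.3 and 18.6 M counts per EO771 library. The low endothelial values pile up in steps of 3.74, so 1 unit is not 1 fragment, and 3 steps (11.22) were taken as the most that a true 0 allows. This limit is in deposited units, and normalised counts are set against it without scaling. Of 10 endothelial markers, Pecam1 and Cdh5 were high in all 4 endothelial groups. Of 7 high endothelial markers, Glycam1, Chst4 and Fut7 were high in HECs and at or near 0 CPM (counts scaled to the library total) in BECs. The other 4 were not: Chst2 averaged 20.7 CPM in BEC normal and 0 in HECs, Madcam1 was at most 0.302 CPM in any group, and Enpp2 and Gcnt1 averaged between 1.22 and 7.29 CPM in all groups. Cldn5, an endothelial junction gene, averaged 257 CPM in BEC normal and between 0.35 and 1.09 CPM in the other 3 groups. The 10 endothelial markers summed to between 3410 and 3654 CPM in BEC normal and between 2494 and 2555 CPM in BEC tumour. In HECs the sum was between 2624 and 2777 CPM. Of these markers 3 were called lower and 0 higher in BEC tumour against BEC normal, and 2 lower and 0 higher in HEC normal against BEC normal. The part of endothelial content in the values below was not tested. Transcripts of other cell types also differed. Markers of myeloid cells summed to between 1659 and 2304 CPM in BEC tumour against 107.5 to 128.3 CPM in BEC normal, and fibroblast and pericyte markers to between 100.9 and 139 CPM against 863 to 872 CPM. Most of the fibroblast and pericyte sum in BEC normal was Acta2, at 622 CPM there and 48.7 CPM in BEC tumour on average. Of the 11 such markers tested, 7 were called lower and 2 higher in BEC tumour. The part of these myeloid, fibroblast and pericyte transcripts in the differences between these groups was not tested. BEC tumour replicate 3 stood apart in epithelial transcripts and EO771 vehicle replicate 2 in several of the genes described, so values that rest on them are also given without them. In bulk samples such as these, fewer cells of a type and less RNA per cell cannot be told apart.

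Itgb1, the common partner of most laminin, collagen and fibronectin receptors, led the endothelial genes. Levels between genes are given as RPKM, reads per kilobase of exon scaled to the library total, so that gene length does not set the order. In BEC normal, Itgb1 stood at 275 ± 19.7 RPKM, followed by Itga5, the fibronectin receptor subunit, at 150 ± 4.60, Itga3 at 98.3 ± 2.63 and Lamc1, the common gamma chain, at 68.9 ± 4.68. These are mean ± SD (n = 3), as for all levels, ratios and shares. Log2 fold changes are given ± the SE of the fit. The same 4 genes led in BEC tumour and in HEC normal, where Itgb1 fell short of its BEC normal level with 151 ± 5.08 and 107 ± 2.69 RPKM. In HEC tumour the order at the top was different, with Itga3 at 144 ± 3.56 RPKM above Itgb1 at 119 ± 3.34, and these ranges did not overlap. EO771 cells had Itga3 at 200 ± 8.84, Itgb1 between 122 and 151, Lama5 at 84.1 ± 5.64, Lamb3 at 67.7 ± 18.3, Itga6 at 60.9 ± 19.8 and Itgb4 at 53.7 ± 11.7 RPKM with vehicle. Lama4 was listed at 0 in all 6 EO771 libraries. Above 1 RPKM in every library of their group were 17 of the 37 genes in BEC normal, 18 in BEC tumour, 19 in each HEC group and 15 in each EO771 group.

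**Figure D1:**
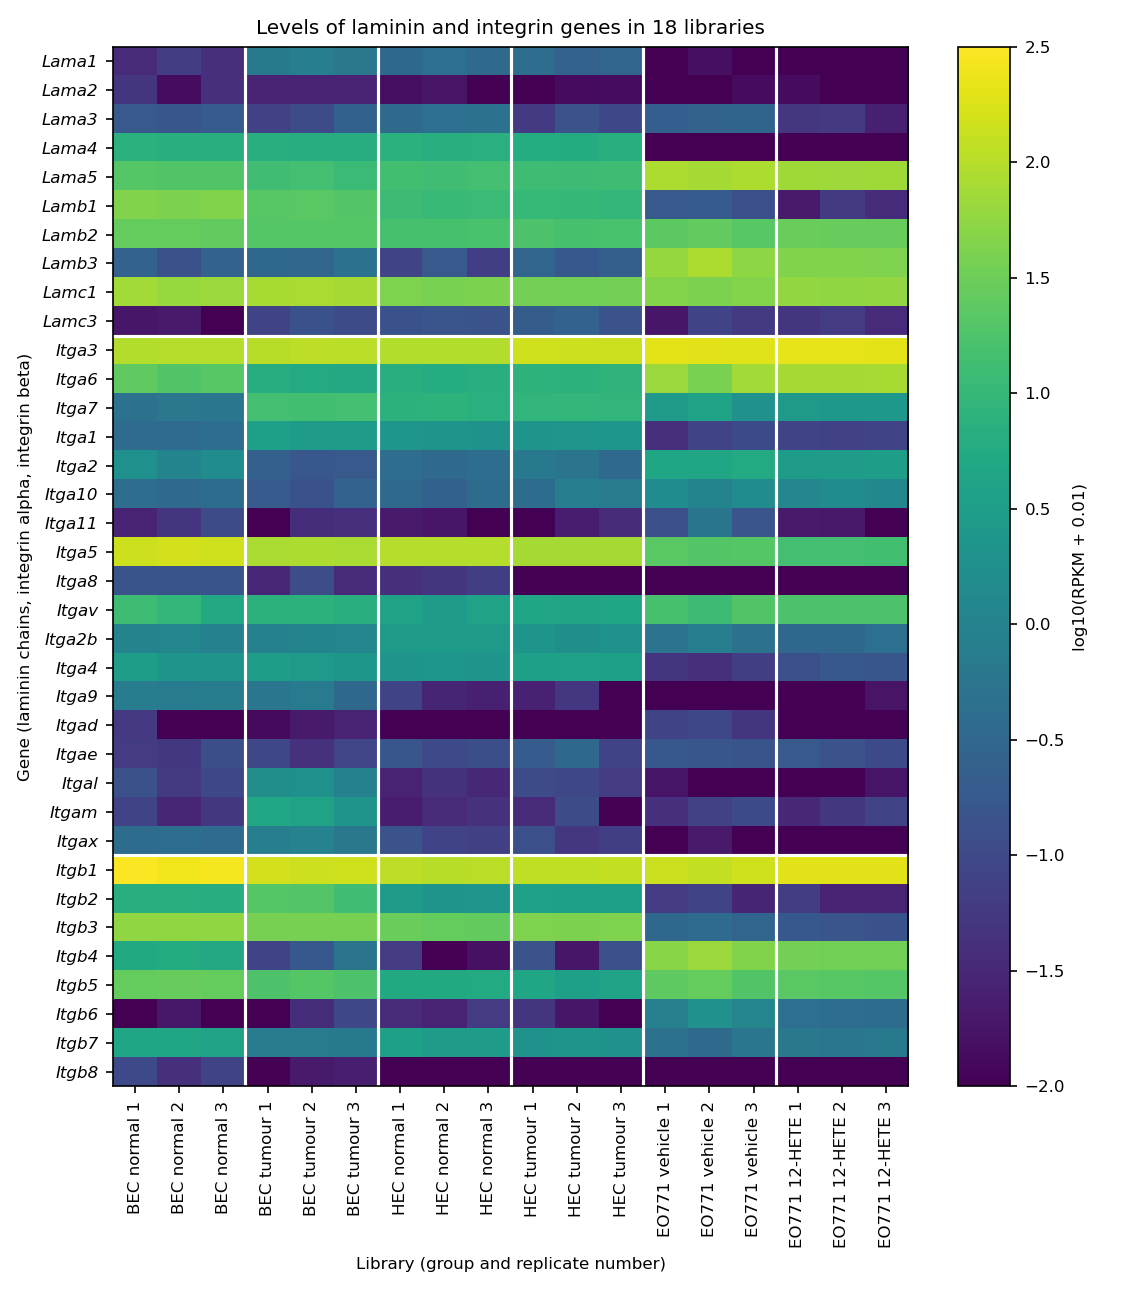
Level of each gene described (rows) in each of the 18 libraries (columns), as log10(RPKM + 0.01), with white lines between groups and between laminin, alpha and beta genes. Itgb1, Itga3 and Itga5 are bright across the endothelial columns, and Lama5, Lamb3, Itga6 and Itgb4 across the EO771 columns, where Lama4 is dark.

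Calls required both an adjusted p under 0.05 and a change of more than 2-fold. In BEC tumour against BEC normal, 9 of the 35 genes tested were higher and 6 lower, where 12.4% of all 18511 genes tested were higher and 10.8% lower. Without BEC tumour replicate 3 the counts were 9 and 7. For HEC tumour against HEC normal the counts were 2 higher and 2 lower, against 4.58% and 3.21% of all genes, or 7.8% in either direction. Another 14 of the 35 had an adjusted p under 0.05 there with a change under 2-fold. HEC normal differed from BEC normal in 7 higher and 16 lower genes (17.1% and 15.1% of all genes, 32.2% together), and HEC tumour from BEC tumour in 5 higher and 12 lower (11.2% and 10.7%, 21.9% together). These comparisons share libraries, so their values are set side by side and not taken as separate evidence.

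Among laminin alpha chains, Lama5 and Lama4 made up nearly all of the endothelial signal. Lama5 stood at 16264, 14935 and 14928 normalised counts in BEC normal and at 10062, 10956 and 9072 in BEC tumour. Lama4 stood at 6268, 5730 and 5717 in BEC normal and at 5452, 5231 and 5213 in BEC tumour. Lama5 was thus 1.53-fold lower in BEC tumour with no overlap (log2 fold change −0.62 ± 0.07, adjusted p = 7.64e-16), a change under the 2-fold limit, and Lama4 did not pass the test (−0.16 ± 0.07, adjusted p = 0.0593). Per length, the log2 ratio of Lama4 to Lama5 was −1.46 ± 0.0047 in BEC normal, between −1.15 and −0.88 over the BEC tumour libraries, −0.94 ± 0.0704 for HEC normal and −1.01 ± 0.0753 for HEC tumour. Every library of the other 3 groups lay above the BEC normal libraries in this ratio, while those 3 groups overlapped each other. No test was run on the ratio.

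Lama1, the alpha chain of early embryonic basement membranes, was low in BEC normal and rose in BEC tumour. Its normalised counts were 16.8, 37.7 and 21.3 in BEC normal, 428, 543 and 386 in BEC tumour, with 203, 281 and 229 for HEC normal and 251, 156 and 178 for HEC tumour. The BEC normal libraries lay below all others, and the BEC tumour libraries above all others. The change in BECs was 18.2-fold (log2 fold change 4.19 ± 0.33, adjusted p = 1.87e-35), and HEC normal was 9.57-fold above BEC normal (3.26 ± 0.33, adjusted p = 9.4e-22). Even so, Lama1 reached only 0.696 ± 0.126 RPKM in BEC tumour, below Lama4 at 6.54 ± 0.178 and Lama5 at 13.1 ± 1.26 RPKM. Lama3, the alpha chain of epithelial laminin, stood at 261, 312 and 336 normalised counts in HEC normal and at 33.5, 89.8 and 58.7 in HEC tumour, a 4.99-fold fall with no overlap (−2.32 ± 0.48, adjusted p = 9.05e-06). Lama2, the chain of muscle and nerve basement membranes, averaged 26.9 or less in every endothelial group, and its lower calls in HECs (−2.62 ± 1.18 against BEC normal and −2.80 ± 1.22 against BEC tumour) were lost in several other fits, with both HEC groups under the limit for a true 0.

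The beta chains shifted from Lamb1 towards Lamb2. Lamb1 stood at 30350, 28122 and 30335 normalised counts in BEC normal and at 14211, 14882 and 13453 in BEC tumour. HEC normal libraries held 8314, 7482 and 8008 and HEC tumour libraries 6714, 6327 and 6146. None of these 4 groups overlapped. Lamb1 fell 2.09-fold in BEC tumour (−1.06 ± 0.07, adjusted p = 1.25e-56) and was 3.73-fold lower in HEC normal against BEC normal (−1.90 ± 0.07, adjusted p = 2.19e-178). Lamb2 differed less, by −0.42 ± 0.05 between the BEC groups and −0.78 ± 0.05 between HEC normal and BEC normal. Of the summed RPKM of the 3 beta chains, Lamb1 therefore held 61.6% ± 1.40 in BEC normal and 50.4% ± 1.27 in BEC tumour, against 42.5% ± 1.22 for HEC normal and 37.3% ± 0.936 for HEC tumour. Lamb3, the epithelial beta chain, averaged between 45.2 and 162 normalised counts in the endothelial groups, and its lower call in HEC normal against BEC normal (−1.08 ± 0.49, adjusted p = 0.0433) was also lost in several other fits.

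Among gamma chains, Lamc1 stood at 41859, 37556 and 38924 normalised counts in BEC normal and at 45419, 46415 and 43260 in BEC tumour. It stood at 24077, 22573 and 23193 in HEC normal and at 19610, 18698 and 19309 in HEC tumour. All HEC libraries lay below all BEC libraries. Lamc1 was 2.34-fold lower in HEC tumour against BEC tumour (−1.23 ± 0.06, adjusted p = 1.84e-105), and its changes with a tumour were under 2-fold, at 0.19 ± 0.06 in BECs and −0.28 ± 0.06 in HECs. Lamc3, a rare gamma chain, stood at 3.53, 4.71 and 0 normalised counts in BEC normal, all under the limit for a true 0, and at 30.6, 52.5 and 41.8 in BEC tumour, with 51.7 to 59.0 in HEC normal.

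**Figure D2:**
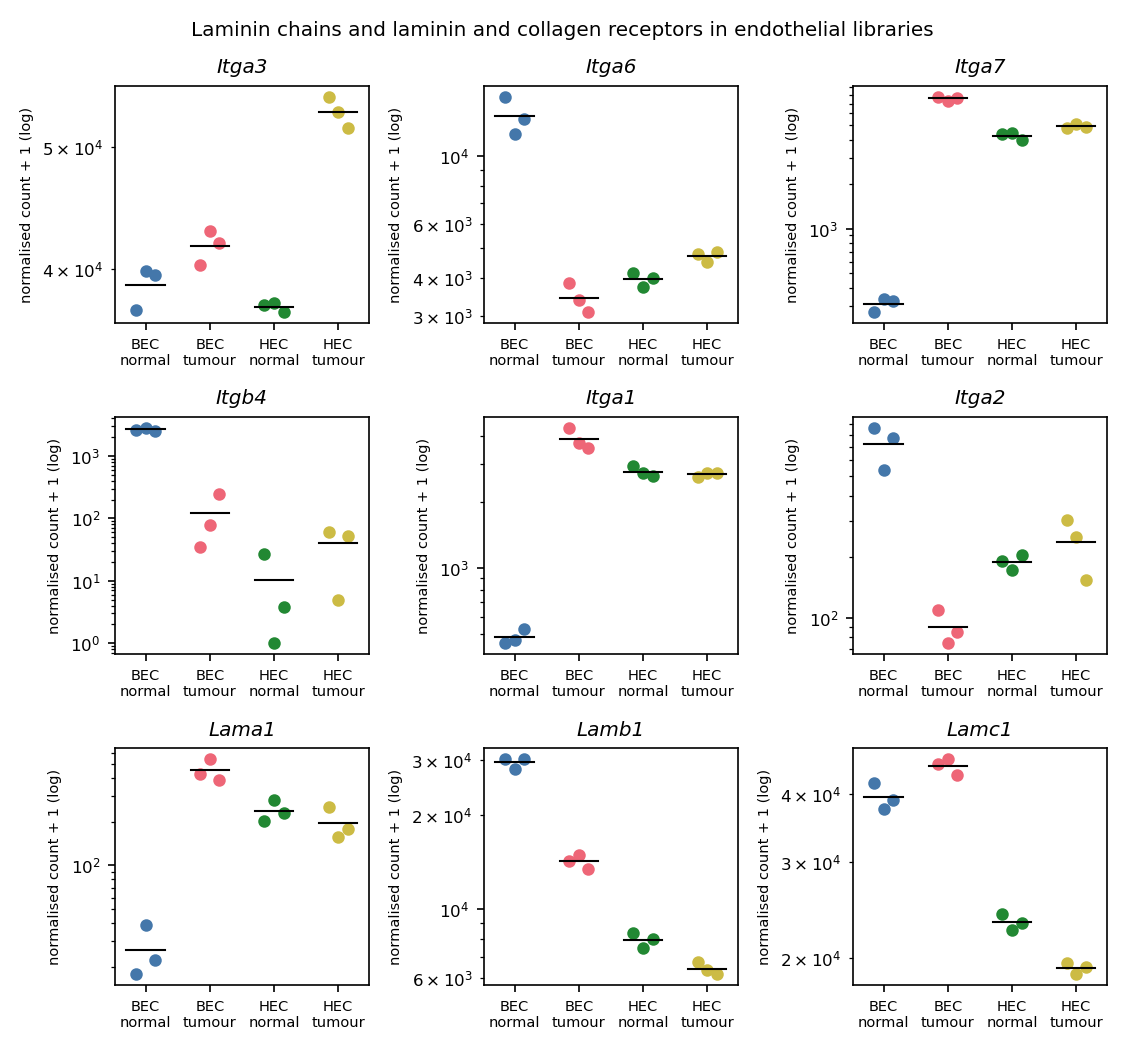
Normalised count + 1 on a log axis in each endothelial library for 9 genes of laminin chains and of laminin or collagen receptors. Points are libraries and bars are group means; Itga7, Itga1 and Lama1 are lowest in BEC normal, Itga6, Itgb4, Itga2 and Lamb1 are highest there, and Itga3 is highest in HEC tumour.

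The laminin-binding alpha subunits exchanged places between fat pad and tumour BECs. Itga7 (chr10:128933818-128958282, plus strand), best known as the laminin receptor of muscle, stood at 272, 334 and 324 normalised counts in BEC normal and at 7775, 7334 and 7643 in BEC tumour. Itga6, the subunit that pairs with beta 1 or beta 4, stood at 15567, 11790 and 13208 in BEC normal and at 3857, 3402 and 3093 in BEC tumour. The BEC groups were far apart for both genes. Itga7 rose 24.6-fold (4.62 ± 0.09, with an adjusted p too small for the software to represent) and Itga6 fell 3.92-fold (−1.97 ± 0.11, adjusted p = 7.63e-65). Both HEC groups lay nearer to BEC tumour than to BEC normal, with Itga7 between 3964 and 5052 and Itga6 between 3748 and 4844 normalised counts. Within the HECs, Itga7 and Itga6 passed no 2-fold change with tumour (0.21 ± 0.07 and 0.25 ± 0.11). In RPKM, Itga7 held 0.459% ± 0.0468 of the 3 laminin-binding subunits in BEC normal and 10.9% ± 0.533 in BEC tumour, while Itga3 held between 81.6% and 89.2% in every endothelial group on average. Itga3, the main laminin-binding subunit here, was 1.43-fold higher in HECs with a tumour, at 54753, 53272 and 51724 against 37465, 37587 and 36968 normalised counts (0.51 ± 0.05, adjusted p = 6.53e-28).

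Itgb4, the subunit that anchors epithelia to laminin through hemidesmosomes together with alpha 6, was a BEC normal gene among the endothelial groups. It stood at 2626, 2812 and 2541 normalised counts in BEC normal and at 33.4, 77.8 and 246 in BEC tumour. HEC normal libraries held 25.4, 0 and 2.87 and HEC tumour libraries 60.0, 3.95 and 52.0. All 9 libraries of the other groups lay below BEC normal. In BEC tumour Itgb4 fell 22.3-fold (−4.48 ± 1.26, adjusted p = 0.00105). Epithelial markers summed to 77.7 CPM in BEC tumour replicate 3, the library with the most Itgb4 of that group, against 9.44 and 12.4 CPM in the other BEC tumour libraries and 1.51 to 3.00 CPM in BEC normal, and 5 of the 6 such markers tested were called higher in BEC tumour. Without that library the Itgb4 value was −5.58 ± 1.39 (adjusted p = 0.000211). Replicate 3 also held the most Lama3 (171 against 49.2 and 69.4), Lamb3 (221 against 135 and 130) and Itgb6 (41.0 against 0 and 13.5 normalised counts). Without it, Lama3 was called lower in BEC tumour (−1.08 ± 0.40, adjusted p = 0.0152). The part of epithelial transcripts in these values was not tested.

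The collagen-binding subunits Itga1 and Itga2 are neighbours on chromosome 13, both on the minus strand and with 20995 bases between them, and their levels went in opposite directions. The 250 bases before each start are shown because these adjacent genes moved apart in the same libraries (RefSeq starts, GRCm38.p6, minus strand, 5′ to 3′).
Itga1, chr13:115101965-115102214: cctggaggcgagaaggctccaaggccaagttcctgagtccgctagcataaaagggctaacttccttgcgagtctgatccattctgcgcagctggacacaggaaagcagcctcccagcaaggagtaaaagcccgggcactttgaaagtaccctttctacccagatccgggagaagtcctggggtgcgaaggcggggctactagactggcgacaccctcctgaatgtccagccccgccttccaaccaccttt
Itga2, chr13:114932101-114932350: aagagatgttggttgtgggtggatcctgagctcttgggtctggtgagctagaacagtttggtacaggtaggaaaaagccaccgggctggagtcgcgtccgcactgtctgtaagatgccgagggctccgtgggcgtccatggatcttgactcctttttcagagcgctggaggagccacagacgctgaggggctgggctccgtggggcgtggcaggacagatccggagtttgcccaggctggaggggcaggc
They contain no match on either strand to any of 6 motifs searched, so no base is in capitals. The motifs were TGANTCA of AP-1, GGGCGG of SP1, TATAAA of the TATA box, ACGTG of HIF, TTCNNNGAA of STAT and CCGGAAG of ETS factors, found in 6.75%, 32.74%, 12.37%, 16.57%, 7.02% and 6.91% of 32851 windows of the same length. This says only that these letters are not in these windows.

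Itga1, the laminin- and collagen IV-binding subunit, stood at 455, 470 and 530 normalised counts in BEC normal and at 4367, 3716 and 3540 in BEC tumour. Itga2, which prefers fibrillar collagen, stood at 866, 533 and 770 in BEC normal and at 109, 73.6 and 83.7 in BEC tumour. The groups did not overlap for either gene. Itga1 rose 7.99-fold (3.00 ± 0.10, adjusted p = 2.28e-178) and Itga2 fell 8.17-fold (−3.03 ± 0.29, adjusted p = 4.61e-24). In HEC normal against BEC normal, Itga1 was likewise higher (2.51 ± 0.11) and Itga2 lower (−1.95 ± 0.29, adjusted p = 4.86e-11). Neither passed the test between the HEC groups, where Itga1 ran from 2617 to 2928 and Itga2 from 153 to 302 normalised counts. Itga10, a cartilage collagen receptor with 33.5% of its exon bases shared with another gene model, fell by 1.05 ± 0.37 on the log2 scale in BEC tumour (adjusted p = 0.0109), a call that was lost without BEC tumour replicate 2. Itga11, a fibroblast collagen receptor, stood between 0 and 34.5 normalised counts and was not tested.

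**Figure D3:**
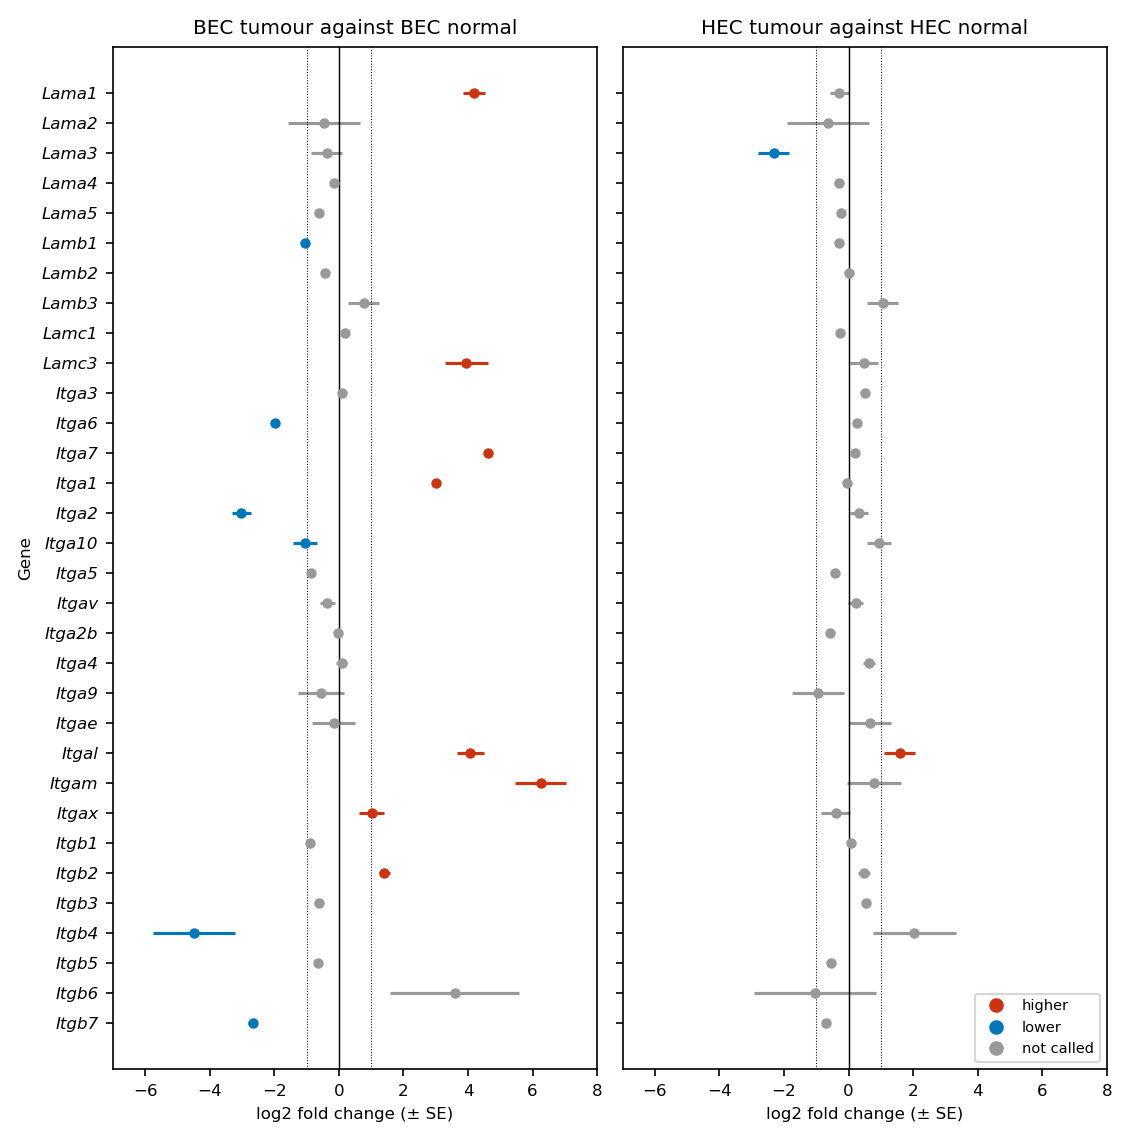
Log2 fold change with tumour (points, with bars of ± SE) for the genes tested and described, in BECs on the left and HECs on the right; Itga8 and Itgb8, which are at 0 in at least 1 group, are left out. Red and blue points are called higher and lower, and dotted lines mark 2-fold; the spread of the BEC points from −4.48 (Itgb4) to 6.25 (Itgam) is wider than that of the HEC points.

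Of the 4 RGD-binding alpha subunits none was called in BEC tumour against BEC normal, where 12.4% of all genes tested were higher and 10.8% lower. In HEC normal against BEC normal 1 was called higher and 2 lower, against 17.1% and 15.1% of all genes. Itga5 was 1.82-fold lower in BECs with a tumour (48814, 52801 and 52363 normalised counts without against 27505, 28721 and 28550 with it) and 1.33-fold lower in HECs, both under the 2-fold limit with adjusted p-values of 5.7e-95 and 2.59e-21. Itgav, the shared alpha subunit of the vitronectin and TGF-beta-activating receptors, varied within BEC normal, at 9219, 7130 and 3913, and was 2.58-fold lower in HEC normal at 2827, 2179 and 2860 (−1.37 ± 0.24, adjusted p = 3.9e-08). Itga2b, the platelet fibrinogen receptor subunit, was higher in HEC normal, at 984, 1099 and 988 against 385, 435 and 364 normalised counts in BEC normal (1.38 ± 0.13, adjusted p = 1.41e-24). Of the 4 platelet markers tested in this comparison, Gp9 was called higher (0.477 CPM in BEC normal and 1.07 CPM in HEC normal) and Pf4 and Clec1b lower. The summed platelet markers, mostly Pf4, were between 17.0 and 22.5 CPM in BEC normal and between 2.27 and 3.13 CPM in HEC normal, and their part in the Itga2b value was not tested. Itga8, an RGD receptor of smooth muscle, was at 0 in all 3 HEC tumour libraries against 16.2, 19.3 and 28.7 in HEC normal. The HEC normal mean was about 1.91-fold the limit for a true 0. In BEC normal Itga8 stood at 70.5, 70.6 and 72.1, with a mean about 6.34-fold the limit. Fibroblast and pericyte markers summed to between 41.8 and 42.4 CPM in HEC normal and between 18.8 and 21.3 CPM in HEC tumour, with 6 of the 11 tested called lower and none higher, and their part in the Itga8 values was not tested.

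Itga4, the subunit of receptors for VCAM-1 and MAdCAM-1, averaged between 2110 and 3252 normalised counts in the 4 endothelial groups and was not called in any of their comparisons. With a tumour it was 1.54-fold higher in HECs (0.62 ± 0.18, adjusted p = 0.00208). Itga9, a subunit needed for lymphatic valves, was a BEC gene. It stood at 411, 379 and 423 in BEC normal and 295, 368 and 163 in BEC tumour, against 38.5, 10.2 and 7.64 in HEC normal and 8.08, 20.7 and 0 in HEC tumour. Neither HEC group overlapped a BEC group, and the fold changes were 21.5 without a tumour (−4.43 ± 0.74, adjusted p = 9.71e-09) and 28.4 with one (−4.83 ± 0.77, adjusted p = 2.29e-09), where the HEC tumour mean is under the limit for a true 0. In HEC normal replicates 2 and 3 were also under it, and the size depended on single libraries, reaching −5.50 without HEC normal replicate 1 and −6.11 without HEC tumour replicate 2. Summed lymphatic markers were between 341 and 362 CPM in BEC normal, 202 and 222 CPM in BEC tumour and 282 and 360 CPM in HECs, mostly Lyve1 and Flt4. Pdpn of the same list averaged 63.7 CPM without and 28.3 CPM with a tumour in BECs, against 3.23 and 1.36 CPM for HECs. This was the order of Itga9, which the other markers of the list did not share. Lyve1 averaged 203 CPM without and 50.5 CPM with a tumour in BECs, against 199 and 238 CPM for HECs. Flt4 likewise averaged 83.1 and 132 CPM, against 105 and 116 CPM. Of the 6 markers, 1 was called higher and 1 lower in HEC normal against BEC normal. With a tumour, 1 was called higher and 2 lower in HECs. The part of lymphatic transcripts in the Itga9 values was not tested.

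Itgam, Itgal, Itgax and Itgb2 rose in BEC tumour, where myeloid transcripts were also higher, whereas Itgae did not pass the test (−0.16 ± 0.67, adjusted p = 0.867) and Itgb7 fell. Itgam, the alpha subunit of the macrophage and neutrophil receptor Mac-1, stood at 25.6, 7.06 and 15.2 normalised counts in BEC normal and at 1644, 1320 and 707 in BEC tumour. Itgal, the alpha subunit of LFA-1, stood at 54.7, 22.4 and 38.6 in BEC normal and at 727, 796 and 424 in BEC tumour. Itgb2, the beta subunit of both, stood at 1392, 1418 and 1349 and at 4248, 4031 and 2753. In all 3 genes the groups did not overlap, and BEC tumour replicate 3 was the lowest of its group. Log2 fold changes were 6.25 ± 0.78 for Itgam (adjusted p = 9.88e-15), 4.06 ± 0.42 for Itgal (adjusted p = 3.21e-21) and 1.41 ± 0.17 for Itgb2 (adjusted p = 3.2e-15). Itgax, the dendritic cell subunit, was called at the limit (1.01 ± 0.39, adjusted p = 0.0187) and lost the call in several other fits, without BEC normal replicates 1 or 3 or BEC tumour replicates 1 or 2 among them. Of 11 myeloid markers, 10 were called higher in BEC tumour, with Csf1r at 46.1, Adgre1 at 26.7 and C1qa at 84.2 CPM there against 3.27, 0.0367 and 0 CPM in BEC normal, and their sum was also lowest in replicate 3. T and B cell markers summed to between 9.42 and 11.1 CPM in BEC tumour and between 4.23 and 4.51 CPM in BEC normal. Most of this sum was Lck, at 6.44 and 4.26 CPM on average. Of the 5 such markers tested, 4 were called higher in BEC tumour and 0 lower, with a median log2 fold change of 7.62. The part of these cells in the integrin values was not tested. Exons of Itgam share 68.67% of their bases with another gene model on the same strand, so its value is uncertain.

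In HECs the leukocyte alpha subunits were low, whereas Itgb2 stood between 448 and 617 normalised counts in HEC normal and between 684 and 741 in HEC tumour. Itgal stood at 8.11, 16.3 and 9.56 normalised counts in HEC normal and at 43.9, 36.5 and 21.0 in HEC tumour (1.58 ± 0.49, adjusted p = 0.00507). The groups did not overlap, but the call was lost when only these 2 groups were fitted (1.58 ± 0.72, adjusted p = 0.0668). HEC normal replicates 1 and 3 were under the limit for a true 0 and the HEC normal mean (11.3) was near it, so the size is loose. Itgam was between 0 and 32.6 and Itgax between 12.8 and 43.6 in the 6 HEC libraries. Myeloid markers summed to between 484 and 511 CPM in HEC normal and between 360 and 377 CPM in HEC tumour, mostly Cd68 (488 and 360 CPM on average), and C1qa and Adgre1 averaged at most 0.0187 CPM. Of the 11 myeloid markers tested, C1qc and Fcgr1 were called higher in HEC tumour, at averages of 0.0431 and 0.0888 CPM against 0 for both, and none lower, while S100a8 averaged 1.16 and 3.08 CPM and S100a9 0.40 and 1.00 CPM without passing the test. Their part in the Itgal value was not tested. Itgae, the subunit that binds E-cadherin, averaged between 19.6 and 57.2 in the 4 groups, and its higher call in HEC tumour against BEC tumour (1.55 ± 0.65, adjusted p = 0.034) was lost in several other fits, such as without HEC tumour replicate 2 (1.03 ± 0.72). Itgad, a macrophage subunit, reached 14.1 normalised counts in 1 BEC normal library, was 5.23 or less in the other endothelial libraries and was not tested.

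Beta subunits were lower in HECs than in BECs without a tumour for 6 of 8 genes, where 15.1% of all genes tested were lower, and none was called higher. Fibroblast and pericyte markers were also lower in HEC normal, at 41.8 to 42.4 CPM in sum against 863 to 872 CPM, with 7 of 11 called lower and 1 higher, and their part in these values was not tested. Itgb1 stood at 82346, 73020 and 77267 in BEC normal and at 30806, 29366 and 29628 in HEC normal, 2.59-fold lower with no overlap (−1.37 ± 0.06, adjusted p = 5.92e-134). Itgb5, the vitronectin receptor subunit, stood at 6707, 7082 and 6659 in BEC normal and at 1305, 1293 and 1368 in HEC normal, 5.15-fold lower (−2.37 ± 0.11, adjusted p = 2.09e-104). Itgb3, the partner of alpha V and alpha IIb, was 2.07-fold lower in HEC normal (−1.05 ± 0.06, adjusted p = 4.36e-70). With a tumour Itgb5 stayed 4.80-fold lower in HECs (−2.26 ± 0.11), while Itgb1 differed by −0.39 ± 0.06 and Itgb3 by 0.10 ± 0.06 (adjusted p = 0.134). Itgb7, the gut-homing partner of alpha 4 and alpha E, stood at 832, 896 and 753 in BEC normal and at 134, 137 and 120 in BEC tumour. It fell 6.34-fold (−2.67 ± 0.14, adjusted p = 1.53e-81), and HEC tumour at 375, 380 and 348 lay 2.82-fold above BEC tumour (adjusted p = 9.7e-25). Itgb8, a TGF-beta-activating subunit, was at 0 in all 6 HEC libraries. It stood at 65.3, 24.7 and 55.9 in BEC normal, with a mean about 4.33-fold the limit for a true 0. In BEC tumour it averaged 6.31, under the limit, so no fold is given although HEC tumour was called lower. Itgb6, an epithelial subunit, averaged 18.2 or less in the endothelial groups and was not called.

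The change with a tumour differed between cell types for 15 of the 35 genes, tested as an interaction, where 23.3% of all genes tested passed. For 6 genes the change in HECs was the more positive (11.2% of all genes). Itga6 (2.22 ± 0.16), Itga2 (3.35 ± 0.41), Itga10 (1.99 ± 0.52), Itgb4 (6.52 ± 1.81) and Itgb7 (1.97 ± 0.19) fell in BECs and were not called in HECs, and Itgb3 (1.15 ± 0.08) passed the 2-fold limit in neither cell type. For 9 genes it was the more negative (12.1% of all genes). Lama1 (−4.48 ± 0.44), Lamc3 (−3.47 ± 0.80), Itga7 (−4.41 ± 0.11), Itga1 (−3.04 ± 0.14), Itgam (−5.46 ± 1.15) and Itgax (−1.41 ± 0.59) were called higher in BECs and not in HECs. Itgal was called higher in both, by less in HECs (−2.48 ± 0.64). Lama3 (−1.93 ± 0.67) and Itga8 (−5.28 ± 1.55) were called lower in HECs with a tumour and not called in BECs. Without BEC tumour replicate 3, however, Lama3 was called lower in BECs too (−1.08 ± 0.40). Over the other fits the Lama3 interaction ran from −2.34 to −1.23. Itga8 is at 0 in HEC tumour, so that its size is not set by the data. The sizes for Itgb4 and Itgam are also loose, since their HEC normal means (9.41 and 7.89 normalised counts) are under the limit for a true 0. The same holds for Lamc3, whose BEC normal mean (2.74) is under it, and for Itgal, whose HEC normal mean (11.3) is near it. Itgb4 reached 9.21 without HEC normal replicate 1, and Itgam −7.23 without HEC tumour replicate 2.

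In EO771 cells Lama5 and Lamb3 were the main alpha and beta chains. Lama5 held 99.7% ± 0.0496 of the alpha chains and Lamb3 73.7% ± 2.89 of the beta chains in RPKM with vehicle, and Lama3 was at 0.248 ± 0.0296 RPKM. With 12-HETE 1 of the 25 genes tested was higher and 6 were lower, where 2.38% of all 11602 genes tested were higher and 7.79% lower. Without vehicle replicate 2 the counts were 1 and 5. 

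Lama3, the alpha chain of epithelial laminin, fell with 12-HETE from 41.6, 49.7 and 51.2 to 8.22, 8.87 and 2.95 normalised counts (−2.83 ± 0.48, adjusted p = 4.46e-08). Lamb3, its beta chain partner, was lower without overlap (7337, 10339 and 6240 against 5356, 5286 and 5261) but under the 2-fold limit (−0.59 ± 0.17, adjusted p = 0.00258). Lamb1 fell from 30.7, 33.4 and 20.5 to 2.05, 8.87 and 4.92 (−2.41 ± 0.60, adjusted p = 0.000294). The abundant Lamc1 and Lamb2 were higher by less than 2-fold (0.41 ± 0.09 and 0.32 ± 0.11), and Lama5 was lower (−0.21 ± 0.09, adjusted p = 0.0377). Lama1, Lama2 and Lama4 were at or near 0, and Lamc3 stood between 0.99 and 7.64 normalised counts; these 4 were not tested. Epithelial markers summed to between 2869 and 3785 CPM with vehicle, highest in replicate 2, and to between 1930 and 1986 CPM with 12-HETE, with 1 of the 6 tested called lower, and their part in the laminin values was not tested. Fibroblast and pericyte markers summed to between 395 and 616 CPM with vehicle and between 999 and 1038 CPM with 12-HETE, with 2 of the 3 tested called higher and 1 lower.

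**Figure D4:**
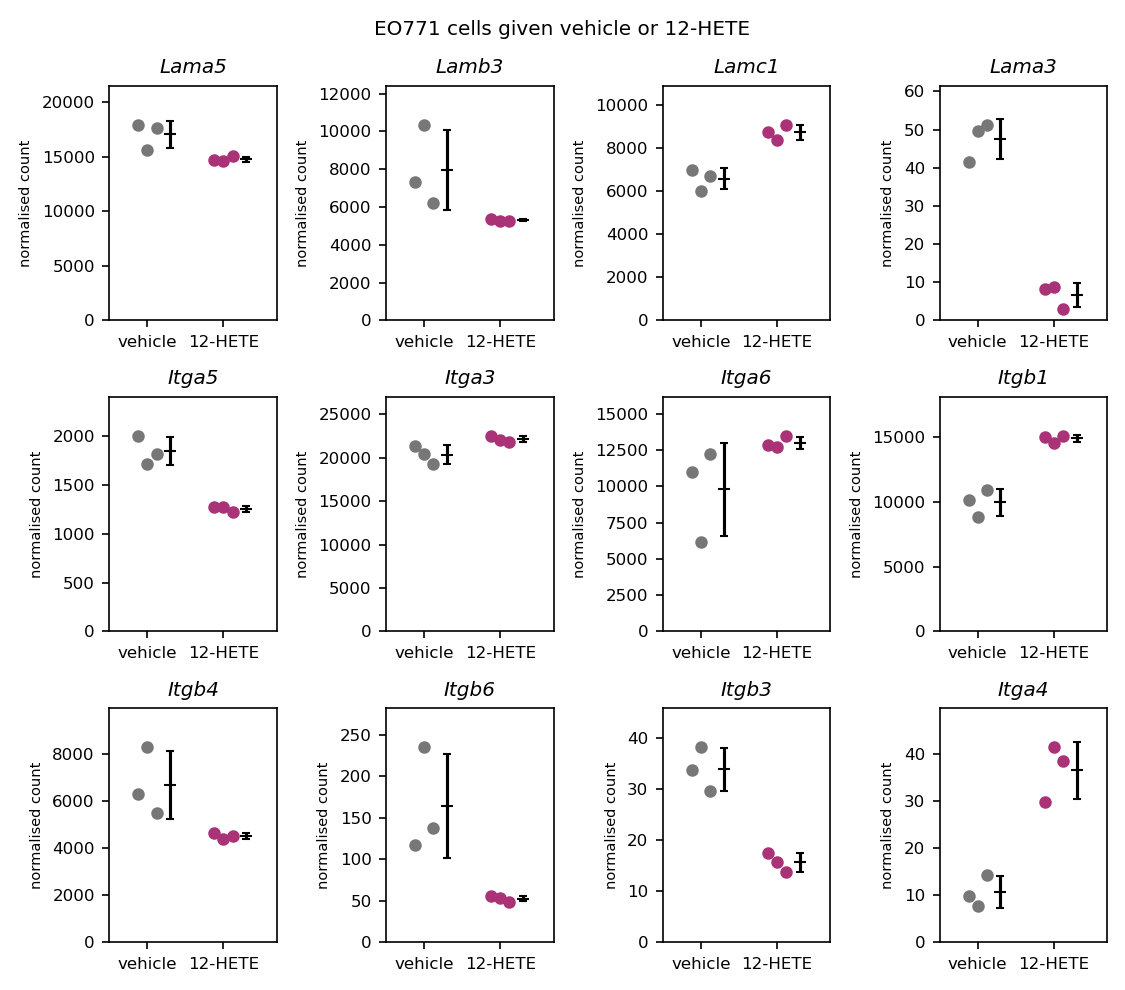
Normalised counts of 12 genes in the 3 vehicle and 3 12-HETE libraries of EO771 cells, with axes from 0; points are libraries and bars give mean ± SD. Lama3, Itgb6, Itgb3 and Itga5 are lower and Itga4 higher in every 12-HETE library, and 1 vehicle library stands apart in Itga6 and Lamb3.

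The main laminin receptor subunits of EO771 cells changed by less than 2-fold. Itgb1 stood at 10148, 8833 and 10922 normalised counts with vehicle and at 15029, 14578 and 15082 with 12-HETE, 1.49-fold higher with no overlap (0.58 ± 0.10, adjusted p = 1.84e-07). Itgb4 stood at 6315, 8305 and 5505 and at 4650, 4416 and 4505, 1.48-fold lower (−0.57 ± 0.15, adjusted p = 0.000824). Itga3 did not pass the test (0.12 ± 0.08, adjusted p = 0.193), nor did Itga6 (0.41 ± 0.22, adjusted p = 0.106). Vehicle replicate 2 stood apart in Itga6, at 6171 against 10962 and 12244, and it held the most Lamb3, Itgb4, Itgb6 and Itga11. Without it the Itga6 value was 0.16 ± 0.08 (adjusted p = 0.0957), that of Lamb3 −0.36 ± 0.09 and that of Itgb4 −0.39 ± 0.08 (adjusted p = 1.86e-05).

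Of the other integrin genes, 3 were called lower with 12-HETE and Itga4 was called higher. Itgb6, the epithelial TGF-beta-activating subunit, stood at 118, 235 and 138 with vehicle and at 55.5, 53.2 and 49.2 with 12-HETE (−1.64 ± 0.30, adjusted p = 5.42e-07), and at −1.29 ± 0.25 without vehicle replicate 2. Itgb3 stood at 33.6, 38.2 and 29.7 against 17.5, 15.8 and 13.8 (−1.11 ± 0.40, adjusted p = 0.0139), a call that was lost under the leaving out of 5 of the 6 libraries. Itga11 stood at 10.9, 50.6 and 13.3 against 1.03, 0.986 and 0, so its call (adjusted p = 0.000165) rests on at most 1 count per 12-HETE library. Itga4 was the one gene called higher, with 9.90, 7.64 and 14.3 against 29.8, 41.4 and 38.4 (1.79 ± 0.45, adjusted p = 0.000325). No group overlap was seen in these 4 genes. Itga2 and Itga5 were lower by less than 2-fold (−0.62 ± 0.14 and −0.56 ± 0.10). Itga7, Itga1, Itga10, Itgav, Itga2b, Itgae, Itgb5 and Itgb7 did not pass the test, with log2 fold changes between −0.71 (Itga2b) and 0.42 (Itgb7), and Itga8, Itga9, Itgad, Itgal, Itgam, Itgax, Itgb2 and Itgb8 averaged under 6 normalised counts and were not tested.

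Partners of laminins and integrins were counted from 3 lists, to be read against the shares of all genes called in either direction, which were 23.3% in BEC tumour against BEC normal, 32.2% in HEC normal against BEC normal, 21.9% in HEC tumour against BEC tumour, 7.8% between the HEC groups and 10.2% in EO771. Called members of the basement membrane list were 44.4%, 55.6%, 77.8%, 0% and 0% of those tested in that order, and of the other ligands 66.7%, 58.3%, 58.3%, 8.33% and 45.5%. For the adhesion machinery they were 13.9%, 27.8%, 19.4%, 8.33% and 6.45%, below or near the share of all genes throughout. Of 9 basement membrane partners of laminin, 4 were lower in BEC tumour and none higher, with Col18a1, the collagen XVIII chain, falling 19.6-fold (−4.29 ± 0.20), Agrn, the laminin-binding proteoglycan agrin, 4.58-fold and Col4a1, a collagen IV chain, 2.26-fold. In HEC normal against BEC normal 5 were lower and none higher, in HEC tumour against BEC tumour 7 were lower and none higher, and none was called between the HEC groups or in EO771 cells. Of 13 other integrin ligands, 3 were higher and 5 lower in BEC tumour, among them Icam1, the ligand of LFA-1 and Mac-1 (2.03 ± 0.14), and Icam2 (−2.12 ± 0.16). Between HEC normal and BEC normal 2 of these ligands were higher and 5 lower, with Fn1, fibronectin, 13.4-fold lower in HECs. With a tumour 1 was higher and 6 were lower in HECs, and between the HEC groups 1 was lower, Edil3, which HEC tumour lists at 0. With 12-HETE 5 of these ligands fell in EO771 cells and none rose, among them Vcam1, the ligand of alpha 4 beta 1 (−1.58 ± 0.16), Icam1 (−1.18 ± 0.14) and Madcam1, whose mean was 40.5 with vehicle and 0.999 with 12-HETE. Of 36 genes of integrin activation and adhesion machinery, 3 were higher and 2 lower in BEC tumour, with Fermt3, the kindlin of blood cells, 11.2-fold higher. In HEC tumour against HEC normal 3 were higher and none lower, namely Nedd9 (1.12 ± 0.08), Parvg (1.02 ± 0.24) and Lims2 (1.37 ± 0.52). HEC normal against BEC normal gave 2 higher and 8 lower, HEC tumour against BEC tumour 1 higher and 6 lower, and EO771 cells none higher and 2 lower, Ilk and Lims2. Myeloid, fibroblast and pericyte markers also differed between endothelial groups, and their part in the values of these partners was not tested.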

How the data were processed

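Sequencing reads of the 18 libraries were mapped by the authors to GRCm38 with STAR and counted per gene with featureCounts. The deposited EO771 values are raw counts by gene symbol. For the endothelial libraries the authors deposited whole numbers by Ensembl identifier, taken here as estimated counts, since low values rise in steps of 3.74 for a reason not given in the sources used here. Labels and methods name different library kits, and use of strand in counting is not stated.

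Genes were matched by identifier or symbol in GENCODE M21 (GRCm38). Endothelial (12) and EO771 (6) libraries were fitted separately in DESeq2 1.42.0 (R 4.3.3) with default parameters, a Wald test and Benjamini-Hochberg adjustment over all genes with a mean of at least 10, which were 18511 and 11602 genes. A gene was called at an adjusted p under 0.05 and an absolute log2 fold change over 1. RPKM values used the union of exons and the table totals. The fits were tested on simulated data. Limits for a true 0 (3 steps or 3 counts) cover counting error only, since reads are not independent molecules.

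Each member was described, except 1 gene that is not reported here and is included in the counts. Of the other lists, the 3 called genes with the largest absolute Wald statistic per comparison could be named. Members and lists were chosen with earlier results of these data known. Alternatives were edgeR 4.0.16 (quasi-likelihood, TMM), TMM size factors, no filter on low values, fits of only the groups compared, a replicate block, division by the step, and leaving out each library. Itgam stands on 2 lines of the EO771 table, of which the second is at 0. Promoter windows come from RefSeq and were found for 23 of the 37 genes.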

Additional observations from a re-analysis of the deposited data

Results flagged for a closer look

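For 15 genes HECs and BECs changed differently with a tumour by a test of the difference itself, the interaction term of the DESeq2 fit, given as the log2 change in HECs less that in BECs. Positive differences were found for Itga6 (2.22), Itga2 (3.35), Itga10 (1.99), Itgb3 (1.15), Itgb4 (6.52) and Itgb7 (1.97). Negative differences were found for Lama1 (−4.48), Lama3 (−1.93), Lamc3 (−3.47), Itga7 (−4.41), Itga1 (−3.04), Itga8 (−5.28), Itgal (−2.48), Itgam (−5.46) and Itgax (−1.41). That of Lama3 ran from −2.34 to −1.23 over the alternatives, and without BEC tumour replicate 3 Lama3 was called lower in BECs too (−1.08). Both BEC groups and both HEC groups enter every one of these values, and BEC normal and BEC tumour came from different tissues, which cannot be told apart from the tumour. The sizes for Itga8, Itgb4 and Itgam rest on an HEC group at 0 or under the limit for a true 0. That for Lamc3 rests on BEC normal under this limit, and that for Itgal on HEC normal near it.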

How the results depend on the processing

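Of 81 calls on laminin and integrin genes, 67 were kept under every alternative run (18 for the endothelial comparisons of groups and 10 for EO771), 14 were lost under at least 1 and none changed sign. Among those lost under at least 1 were Lama2 in both comparisons of HECs with BECs, Lama3, Lamb3 and Itga8 in HEC normal against BEC normal, Itgae and Itgb8 in HEC tumour against BEC tumour, Itgal in HEC tumour against HEC normal, Itga10 and Itgax in BEC tumour against BEC normal, Itga8 and Itgax in the interaction, and Itgb3 in EO771. The higher count for HEC tumour against HEC normal, 2 in the report, was 1 under edgeR with TMM, with TMM size factors in DESeq2 and with only these groups fitted, and ran from 1 (without HEC tumour replicate 2) to 3 when a library was left out. In the same way the lower count there ran from 2 to 3. Left-out libraries gave 8 to 10 higher and 6 to 7 lower in BEC tumour, 6 to 7 and 13 to 16 in HEC normal against BEC normal, 4 to 6 and 10 to 12 in HEC tumour against BEC tumour, 6 to 7 positive and 8 to 10 negative interactions, and 1 higher and 5 to 6 lower in EO771. Without length correction the log2 ratio of Lama4 to Lama5 was −1.38 in BEC normal, −0.86 in HEC normal and −0.93 in HEC tumour. Calls gained when 1 library was left out included Lamb3 (1.66, without HEC normal replicate 2), Itgb4 (4.73, without HEC normal replicate 1), Itga10 (1.22, without HEC tumour replicate 1) and Itga9 (−2.23, without HEC tumour replicate 2) between the HEC groups, and Itga8 (−2.55, without BEC tumour replicate 2) and Itgb6 (6.70, without BEC normal replicate 2) between the BEC groups. Lama3 in HEC normal against BEC normal, 1.27, lost its call without BEC normal replicate 2 (1.17) or HEC normal replicate 3 (1.19). The largest shift of the median of all genes under TMM was −0.06.

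Deviations of same-numbered libraries from their group means correlated between −0.0153 and 0.0530 in the endothelial groups. In EO771 they correlated between 0.0254 and 0.154, with 1 of 3 pairs over 0.1. Unlike-numbered libraries ran from −0.0569 to 0.0320 in the endothelial groups and from −0.114 to 0.0331 in EO771. With 3 libraries per group these values cannot tell whether replicate numbers pair the libraries. With a replicate block the higher and lower counts were 8 and 6 in BEC tumour, 2 and 2 in HEC tumour against HEC normal, 7 and 14 in HEC normal against BEC normal, 5 and 10 in HEC tumour against BEC tumour, 6 and 9 in the interaction and 1 and 5 in EO771. With 3 libraries per group, genes near the limit for a true 0, such as Itgb6, Itgad and Itga11, cannot be ranked.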
